A study of Mus musculus with 6 samples.

Results

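The genes described here are Bmp2, the receptors Bmpr1a, Bmpr1b and Bmpr2, the signal carrier Smad1 and the inhibitory Smad6. With them are the inhibitors of differentiation Id1, Id2, Id3 and Id4. All were measured in granulosa cells of the mouse ovary from a conditional Foxo1 and Foxo3 knockout and from wild type. They were chosen by name, and each is represented by every probe set whose only gene symbol in the platform annotation is that of the gene. All 10 genes were found, on 25 probe sets, out of 18193 genes and 45037 probe sets measured. A probe set is a group of short probes on the array that together report 1 transcript or a few.

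The samples were 6, each on an Affymetrix array, in 3 groups of 2. Cells of the knockout, called dKO here, were taken at 2 months and at day 25 of age, and their labels give Foxo1 f/- and Foxo3 f/- together with Amhr2-cre. Wild-type cells, for which the labels name no allele, were taken at day 25. All mice had a mixed background of FVB and C57BL/6. The Cre is driven by the Amhr2 locus, which is active in granulosa cells and also in some other cells that carry the receptor for anti-Müllerian hormone, and its own effect was not tested. Wild-type cells at 2 months were not analysed here, so a difference between dKO at 2 months and wild type mixes genotype with age.

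BMP2 is a secreted ligand of the TGF-beta superfamily. It binds type I receptors (BMPR1A and BMPR1B) and a type II receptor (BMPR2). The type II receptor activates the type I receptor, whose kinase phosphorylates SMAD1 and its relatives. These join SMAD4 and enter the nucleus, where Id1, Id2 and Id3 are among the genes they are best known to activate, and Smad6, which encodes an inhibitor of the same pathway, is another. ID proteins carry a helix-loop-helix domain without the basic region that contacts DNA, so they pair with E proteins and keep these off their sites. In the mouse ovary BMP2 is made by granulosa cells, while the oocyte supplies BMP15 and GDF9.

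The deposited values are intensities on a linear scale, normalised across arrays by the authors with RMA. Array medians were 73 or 74. The array of dKO 2-month replicate 1 was unlike the rest, since its correlation with the remaining arrays over all probe sets was 0.964 to 0.978, and pairs among those 5 gave 0.982 to 0.992. Foxo1 checked the labels: its brightest probe set gave 126 and 343 in dKO at 2 months, 904 and 2291 in dKO at day 25, and 10319 and 7666 in wild type. Foxo3 was not lower in dKO: its brightest probe set gave 2484 and 1872 in dKO at 2 months, 2539 and 3279 in dKO at day 25, and 1632 and 1342 in wild type, and the labels do not say which part of Foxo3 is removed. Granulosa markers were bright in all groups, with Inha between 26038 and 27499 and Foxl2 between 6165 and 13167 over the 6 arrays. Differences below are on the log2(value + 1) scale from limma, with adjusted p-values over all 45037 probe sets. None of the 10 genes passed an adjusted p of 0.05 in any comparison, and neither did any other probe set, so each difference below is a measured size and not a call. Intensities of different genes are not set against each other.

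At day 25 the dKO and wild-type cells were of the same age and differed in genotype. All 10 genes had a lower mean log2 level in dKO, where 43.8% of all genes did. For 7 of them, Bmp2, Bmpr1b, Bmpr2, Smad6, Id2, Id3 and Id4, both dKO arrays lay below both wild-type arrays. This held for 19.5% of all genes, and the opposite, which held for 26.4% of all genes, was seen for 0 of the 10. The median log2 difference of the 10 genes was -0.53, against 0.03 over all genes. The median was -0.29 without dKO day 25 replicate 1. By limma 0 of the 10 passed the adjusted threshold, as did 0% of all genes, and the smallest adjusted p of any probe set was 0.367. At an unadjusted p under 0.05, Id3 was lower (3.43% of all genes were) and 0 were higher (4.88% of all genes). That count of 1 changed in both directions when single arrays were left out. Shares over all genes were not counted for such fits. With 2 arrays per group, 0.333 is the smallest p that an exact two-sided permutation test allows.

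**Figure D1:**
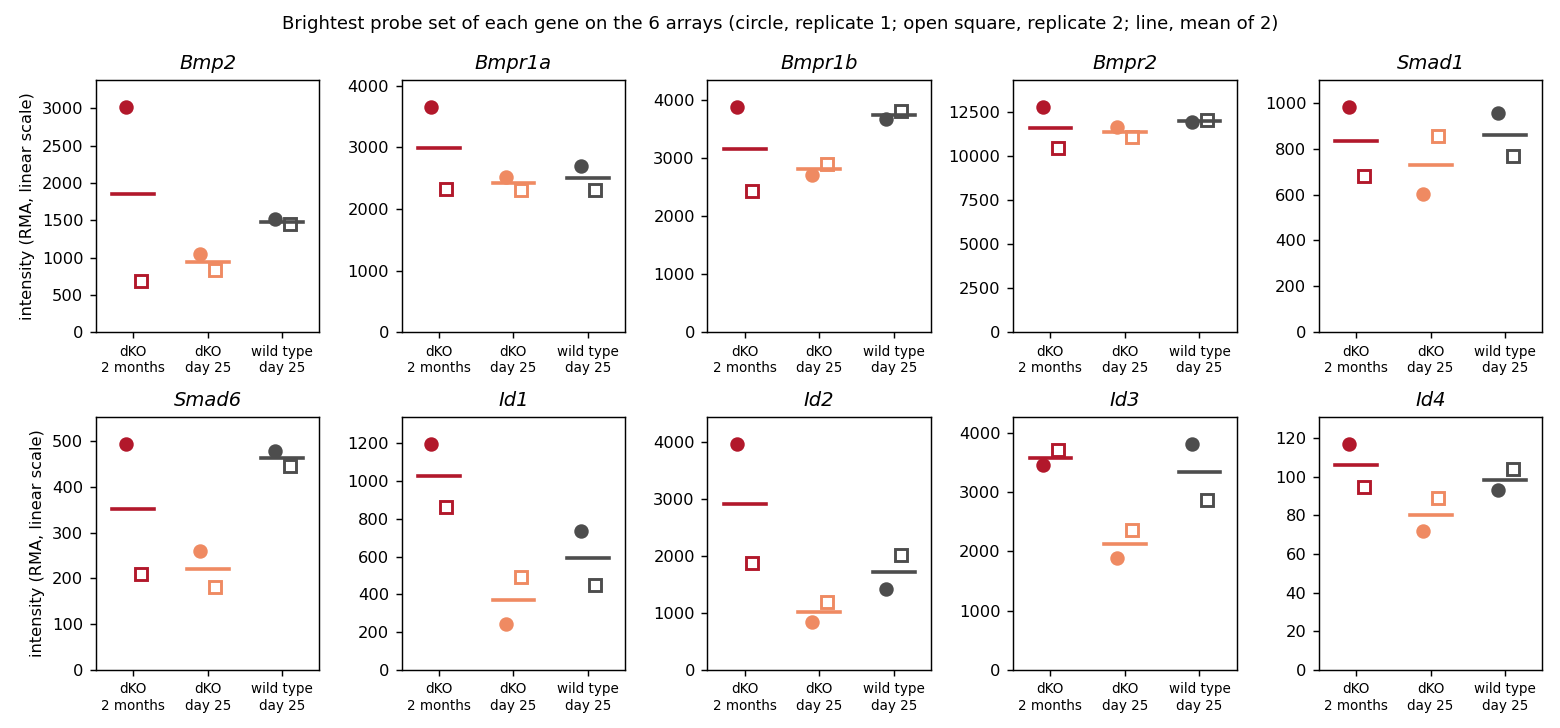
Intensity (linear scale, axis from 0) of the brightest probe set of each gene on the 6 arrays, with dKO at 2 months, dKO at day 25 and wild type at day 25 from left to right; circles are replicate 1, open squares replicate 2 and lines the mean of 2 arrays. Both dKO day 25 arrays lie below both wild-type arrays for 7 of the 10 genes (19.5% of all genes). The highest array is dKO 2-month replicate 1 for 9 of the 10, a count not made over all genes.

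The ligand came out lower in dKO at day 25. Bmp2 intensity was 1054 and 838 on the dKO arrays and 1516 and 1453 on the wild-type arrays. The groups did not overlap, and the lower wild-type array was well above the higher dKO array. The log2 difference was -0.66 ± 0.70 (SE), a 1.58-fold lower level in dKO with adjusted p = 0.831. The standard error is larger than the gap between these 4 arrays would give, because the fit shares 1 spread over the 3 groups and the 2-month replicates differed by 2.13 on the log2 scale.

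Of the type I receptors, which bind the ligand and phosphorylate SMAD1, Bmpr1b was lower in dKO and Bmpr1a was close to wild type. Bmpr1b on its brightest probe set gave 2705 and 2906 in dKO, against 3666 and 3806 in wild type. The groups did not overlap, and the log2 difference was -0.41 ± 0.24 (SE), adjusted p = 0.688. Its probe set 1443720_s_at ran the same way, with 156 and 158 in dKO against 226 and 208 in wild type (log2 difference -0.46 ± 0.11, unadjusted p = 0.00836, adjusted p = 0.498). On the third probe set, 1422872_at, the groups overlapped. Bmpr1a on its brightest probe set gave 2519 and 2313 in dKO and 2700 and 2301 in wild type, and the ranges overlapped. Its log2 difference was -0.05 with a 95% confidence interval from -0.68 to 0.58, so a change of up to about that size in either direction is not excluded by these arrays. All 6 Bmpr1a probe sets overlapped between the groups, with log2 differences from -0.10 to 0.08.

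Bmpr2, the type II receptor that activates the type I receptor, differed between its probe sets. The brightest, 1434310_at, gave 11625 and 11110 in dKO and 11940 and 12032 in wild type, a log2 difference of -0.08 ± 0.13 (SE). The groups did not overlap, but the gap was small. Probe set 1419616_at gave 340 and 311 in dKO, against 567 and 595 in wild type. Here the dKO arrays lay well below both wild-type arrays, with a log2 difference of -0.83 ± 0.10, a 1.78-fold lower level. It had the smallest unadjusted p of the 25 probe sets (0.000454), yet adjusted p = 0.381. Within each array, the log2 level of 1419616_at minus that of 1434310_at was -5.09 and -5.15 in dKO at day 25, and -4.39 and -4.34 in wild type. The probe sets of this gene therefore differed unequally, and where each lies on the transcript is not given in the sources used here. Its remaining probe set, 1441652_at, gave 212 and 216 in dKO and 230 and 254 in wild type.

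Smad6 had the largest difference of the 10 genes on their brightest probe sets. Smad6 intensity was 259 and 181 in dKO, against 480 and 446 in wild type. The dKO arrays were far below the wild-type arrays, with a log2 difference of -1.09 ± 0.44 (SE), a 2.13-fold lower level (unadjusted p = 0.0569, adjusted p = 0.624). It stayed between -1.35 and -0.83 over the 6 fits that each omit an array. Smad1, which carries the signal to the nucleus, gave 601 and 854 in dKO and 953 and 769 in wild type on its brightest probe set. Those ranges overlapped, the log2 difference was -0.26 ± 0.27, and it was 0.00 without dKO day 25 replicate 1. On the dimmest Smad1 probe set, 1416081_at, the groups did not overlap, with 63 and 80 in dKO against 119 and 94 in wild type.

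The ID genes had lower means in dKO for all 4 members. Id1 gave 241 and 494 in dKO and 738 and 448 in wild type, so the groups overlapped. Its log2 difference of -0.73 ± 0.44 (SE) rested on dKO replicate 1 and wild-type replicate 1: it was -0.22 without the first of these arrays and -0.38 without the second, and both replicate pairs of Id1 were widely spaced. Id2 on its brightest probe set gave 835 and 1190 in dKO, against 1410 and 2006 in wild type. The groups did not overlap (log2 difference -0.75 ± 0.43, adjusted p = 0.687), and the other Id2 probe sets, at -0.74 and -1.05, did not overlap either. Id3 gave 1892 and 2356 in dKO, against 3809 and 2870 in wild type, again without overlap. Id3 had a log2 difference of -0.65 ± 0.19 with a 95% interval from -1.14 to -0.15, a 1.57-fold lower level (unadjusted p = 0.0202, adjusted p = 0.555). Id4 is a dim gene here, close to the array median. Its brightest probe set gave 72 and 89 in dKO and 93 and 104 in wild type, a log2 difference of -0.29 ± 0.17. Omitting dKO day 25 replicate 1 gave -0.14, and omitting its partner gave -0.44. The dimmer Id4 probe sets had larger differences, with 17 and 21 in dKO against 39 and 38 in wild type on 1450928_at (-0.99 ± 0.17, unadjusted p = 0.00246, adjusted p = 0.474), and 16 and 21 against 35 and 33 on 1423259_at (-0.86 ± 0.15). All 3 Id4 probe sets were made from 1 sequence accession, so they are not independent of each other.

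Counted over probe sets, 15 of the 25 were lower in dKO at day 25 without overlap, where 21.5% of all probe sets were. At an unadjusted p under 0.05, 5 of the 25 were lower (4.79% of all probe sets) and 0 were higher (3.36%), and 0 passed the adjusted threshold. The 5 belong to Bmpr1b, Bmpr2, Id3 and Id4, with Id4 holding 2 of them.

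**Figure D2:**
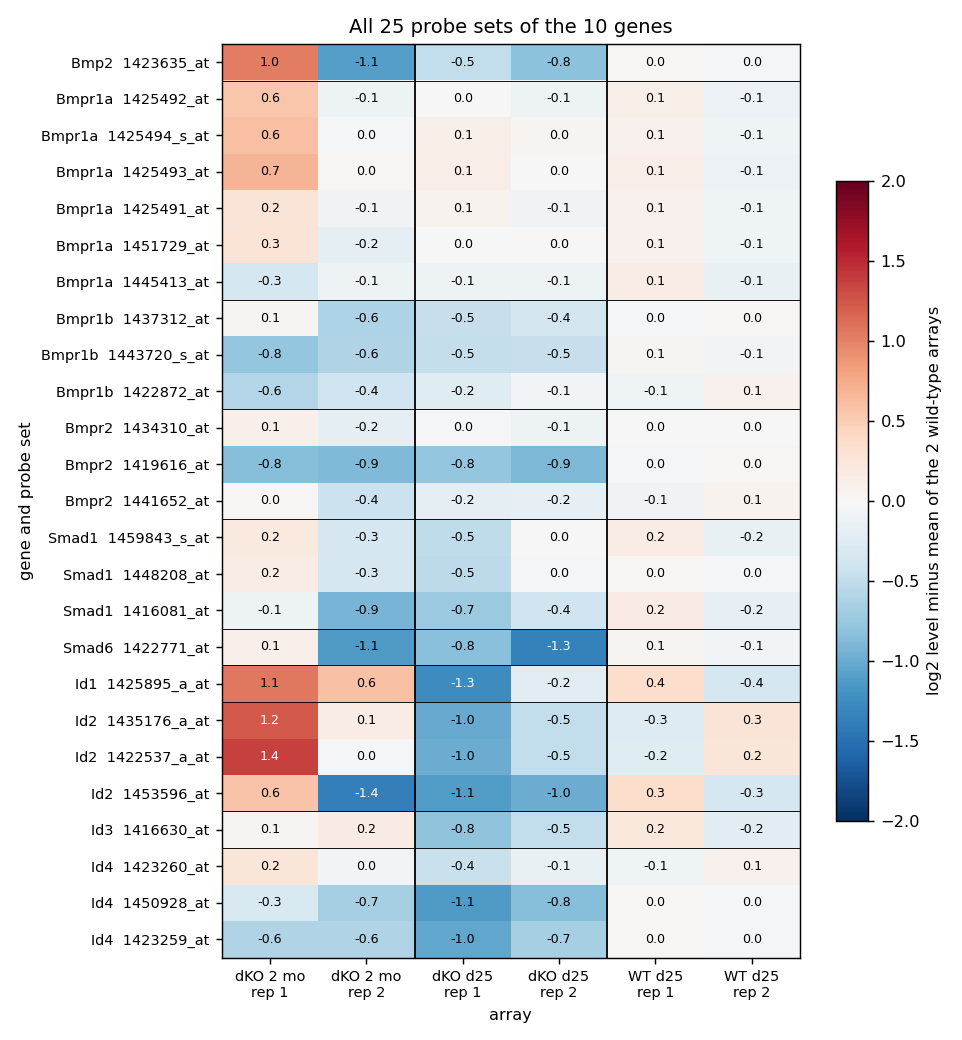
Log2 level of all 25 probe sets on each array minus the mean of the 2 wild-type arrays (colour and printed value, red above and blue below wild type), with arrays in columns in the order dKO at 2 months, dKO at day 25, wild type. The dKO day 25 columns are mostly blue outside Bmpr1a, the Bmpr2 probe set 1419616_at is blue in all 4 dKO columns, and dKO 2-month replicate 1 is the reddest column.

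On their brightest probe sets, Id2, Id3 and Id4 were lower in dKO than in wild type without overlap at day 25. They were also higher without overlap in dKO at 2 months than in dKO at day 25. These comparisons share the dKO day 25 arrays, so the opposite differences are not separate evidence. The share of all genes that meet both conditions was not counted. Because Id2, Id3 and Id4 met both, the windows around their transcription starts are shown. Each runs from 250 bases before to 50 bases after the start, 5′ to 3′ on the gene's strand, from RefSeq on GRCm38.p6. Capitals mark matches, on either strand, to GGCGCC or CAGAC, short motifs reported to bind SMADs, and to GTAAACA, a motif bound by FOXO factors. Id2 lies at chr12:25096043-25096342 on the minus strand, Id3 at chr4:136143572-136143871 on the plus strand and Id4 at chr13:48260866-48261165 on the plus strand.
Id2: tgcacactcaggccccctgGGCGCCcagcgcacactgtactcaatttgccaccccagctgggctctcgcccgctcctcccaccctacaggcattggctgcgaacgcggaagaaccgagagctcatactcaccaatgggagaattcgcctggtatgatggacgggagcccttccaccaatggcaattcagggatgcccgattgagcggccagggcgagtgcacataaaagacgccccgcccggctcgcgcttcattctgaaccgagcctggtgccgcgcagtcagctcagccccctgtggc
Id3: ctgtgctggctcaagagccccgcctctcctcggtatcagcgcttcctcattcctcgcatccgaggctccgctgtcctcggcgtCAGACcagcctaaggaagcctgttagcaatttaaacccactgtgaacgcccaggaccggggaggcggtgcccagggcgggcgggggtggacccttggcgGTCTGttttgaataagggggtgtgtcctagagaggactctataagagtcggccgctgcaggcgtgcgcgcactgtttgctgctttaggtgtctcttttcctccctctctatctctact
Id4: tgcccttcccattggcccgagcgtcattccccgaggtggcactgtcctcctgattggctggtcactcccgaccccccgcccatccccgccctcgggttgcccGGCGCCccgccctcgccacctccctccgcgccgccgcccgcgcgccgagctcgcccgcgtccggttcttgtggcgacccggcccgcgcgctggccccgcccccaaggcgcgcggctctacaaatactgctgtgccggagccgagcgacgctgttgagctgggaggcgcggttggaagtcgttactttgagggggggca

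The Id2 window held 1 GGCGCC, starting 231 bases before the start, and the Id4 window held 1, starting 148 bases before it. The Id3 window held 2 matches to CAGAC, 1 on each strand, starting 167 and 68 bases before the start. None of the 3 held GTAAACA. RefSeq windows were given for 8 of the 10 genes, with 10 windows in all because Bmpr1b has 3, of which a pair overlap; Bmp2 and Id1 are named only. Of the 10 windows, 4 held GGCGCC, 3 held CAGAC and 0 held GTAAACA. Of all 32851 promoter windows of that length, 11.9% held GGCGCC, 49.6% held CAGAC and 3.65% held GTAAACA. A match is a run of letters and not a measured binding site.

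Within the mutant, 2 months was compared with day 25. These groups differed in Foxo1 level as well as in age. The brightest Foxo1 probe set gave 126 and 343 at 2 months, against 904 and 2291 at day 25. Age and the remaining Foxo1 cannot be told apart here. The dKO day 25 arrays are also those compared with wild type above, so the 2 comparisons are not separate evidence. On their brightest probe sets, all 4 ID genes were higher at 2 months without overlap, which was seen for 19.7% of all genes. In the same way, 0 of the 10 genes were lower without overlap (17% of all genes). All 10 had a higher mean log2 level at 2 months, so 0 had a mean log2 difference below 0, against 46.2% of all genes. The median log2 difference was 0.48, against 0.02 over all genes. It was -0.05 without dKO 2-month replicate 1, so for the list as a whole the sign rested on that array. By limma 0 passed the adjusted threshold (0% of all genes; smallest adjusted p of any probe set 0.712). At an unadjusted p under 0.05, Id1, Id2 and Id3 were higher (3.73% of all genes) and 0 were lower (2.9%). That count of 3 also changed in both directions without single arrays, and shares over all genes were not counted for those fits.

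Id1 gave 1196 and 862 in dKO at 2 months, against 241 and 494 at day 25. The 2-month arrays were clearly above, with a log2 difference of 1.55 ± 0.44 (SE), a 2.94-fold higher level (unadjusted p = 0.0177, adjusted p = 0.712). Id2 gave 3957 and 1865 at 2 months and 835 and 1190 at day 25, a log2 difference of 1.45 ± 0.43. The 2-month replicates of Id2 were far apart, but the lower of them still exceeded both day 25 arrays on this brightest probe set. Probe set 1422537_a_at ran the same way. On the dimmest Id2 probe set, 1453596_at, the groups overlapped, with 115 and 29 at 2 months against 35 and 38 at day 25. Id3 gave 3452 and 3707 at 2 months, against 1892 and 2356 at day 25, with the 2-month replicates close together (0.76 ± 0.19, unadjusted p = 0.0111, adjusted p = 0.712). Id4 gave 117 and 95 against 72 and 89, a log2 difference of 0.39 ± 0.17. Without dKO 2-month replicate 1 the log2 differences were 1.32 for Id1, 0.90 for Id2, 0.81 for Id3 and 0.24 for Id4. Because the groups did not overlap for these genes, omitting an array could not change the sign.

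For the ligand, the receptors and the SMADs, the groups overlapped on the brightest probe sets. Bmp2 gave 3021 and 689 at 2 months, against 1054 and 838 at day 25, so that replicate 1 was the highest and replicate 2 the lowest array of the 6. The log2 difference was 0.62 ± 0.70 (SE), or -0.45 without dKO 2-month replicate 1 and 1.68 without replicate 2. Smad6 gave 494 and 210 at 2 months, against 259 and 181 at day 25, and its log2 difference of 0.57 ± 0.44 was -0.04 without dKO 2-month replicate 1. Bmpr1b gave 3882 and 2430 against 2705 and 2906 on its brightest probe set (0.13 ± 0.24), and -0.21 without that array. On its dimmer probe sets Bmpr1b was lower at 2 months without overlap, with 127 and 142 against 156 and 158 on 1443720_s_at and 102 and 116 against 130 and 148 on 1422872_at (unadjusted p = 0.0494, adjusted p = 0.712). Of the 25 probe sets, 1422872_at was the 1 lower at an unadjusted p under 0.05 (2.22% of all probe sets), and 5 were higher (3.36%). Bmpr1a gave 3657 and 2324 at 2 months and 2519 and 2313 at day 25, and Smad1 gave 982 and 681 against 601 and 854. For both, replicate 2 lay within the day 25 range. Bmpr2 was 12799 and 10440 against 11625 and 11110 on its brightest probe set, and 322 and 314 against 340 and 311 on 1419616_at, where the groups overlapped (-0.03 ± 0.10).

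**Figure D3:**
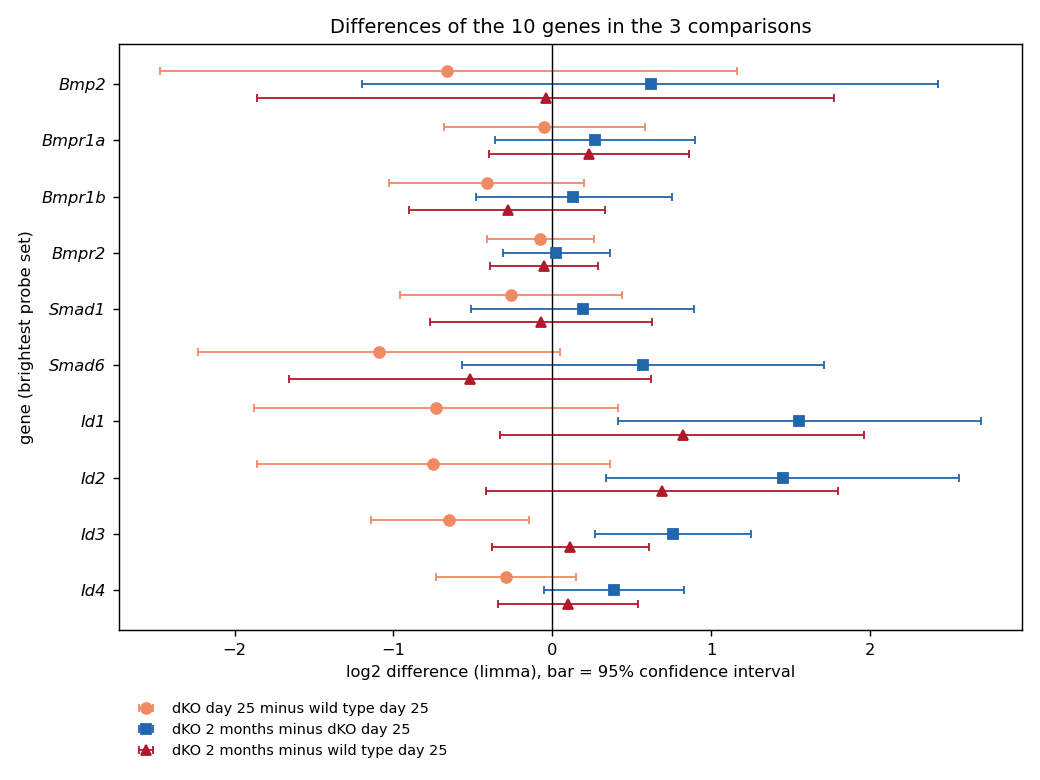
Log2 differences of the brightest probe set of each gene in the 3 comparisons (points, with 95% confidence intervals from limma as bars), dKO at day 25 minus wild type, dKO at 2 months minus dKO at day 25, and dKO at 2 months minus wild type from top to bottom within each gene. At day 25 all 10 points lie left of 0, and the intervals of Id1, Id2 and Id3 lie right of 0 for 2 months against day 25.

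The comparison of dKO at 2 months with wild type at day 25 differs in both genotype and age. Among the 10 genes, Id1 was higher without overlap (26.5% of all genes were) and 0 were lower without overlap (17.3%). The median log2 difference was 0.03, against 0.04 over all genes. It was -0.15 without dKO 2-month replicate 1, 0.22 without dKO 2-month replicate 2 and -0.06 without wild-type replicate 2. Of the 10 genes, 5 had a mean log2 difference below 0 (44% of all genes). By limma 0 passed the adjusted threshold (0% of all genes; smallest adjusted p of any probe set 0.114), and the unadjusted p was under 0.05 for 0 in either direction (5.36% of all genes lower, 9.53% higher). Without dKO 2-month replicate 1 some of the 10 were lower at that level, and without replicate 2 of that group some were higher. Shares over all genes were not counted for those fits. Id1 gave 1196 and 862 in dKO at 2 months, against 738 and 448 in wild type, a log2 difference of 0.82 ± 0.44 (SE), adjusted p = 0.473. It was 0.46 without wild-type replicate 2 and 0.58 without dKO 2-month replicate 1, and the highest value, 1.18, came without wild-type replicate 1. Single probe sets were lower again: Bmpr2 on 1419616_at gave 322 and 314 in dKO at 2 months, against 567 and 595 in wild type (-0.87 ± 0.10, unadjusted p = 0.000382, adjusted p = 0.139). Its 2-month replicates were close together, and all 4 dKO arrays lay below both wild-type arrays on this probe set. Bmpr1b on 1443720_s_at gave 127 and 142 against 226 and 208 (-0.69 ± 0.11, unadjusted p = 0.00159, adjusted p = 0.19), also below wild type on all 4 dKO arrays. Over the 25 probe sets, the unadjusted p was under 0.05 for 5 that were lower and 0 that were higher (6.11% and 6.99% of all probe sets), and these were 2 of Bmpr1b, 1 of Bmpr2 and 2 of Id4. The same 5 lay below wild type without overlap (18.3% of all probe sets). This comparison shares its wild-type arrays with the one at day 25, so the values stand side by side and are not separate evidence.

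Array by array, the brightest probe sets separated the dKO 2-month replicates. On replicate 1, 9 of the 10 genes were above both wild-type arrays and 0 below. On replicate 2, 1 of the 10 was above both wild-type arrays and 5 were below. Shares over all genes were not counted for single arrays, so these counts have no background beside them. Of 18193 genes, 1466 differed more than 2-fold between the 2-month replicates. Between replicates, 342 did so in dKO at day 25 and 420 in wild type. Replicate 2 gave 689 for Bmp2, 210 for Smad6 and 2430 for Bmpr1b, each below both wild-type arrays, and 862 for Id1, above both. For Id2 it gave 1865, for Id3 3707 and for Id4 95, each within the wild-type range. So on this array the ID genes were at or above wild type on their brightest probe sets, while Bmp2, Smad6 and Bmpr1b were within or below their dKO day 25 range. The dim probe sets differed from this: Id2 on 1453596_at gave 29 there, below both wild-type arrays, and Id4 gave 24 on 1450928_at and 22 on 1423259_at, below wild type as well. A pattern on a single array has no replicate.

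Markers of other cell types also differed between arrays, not always in the direction of the 10 genes. On dKO 2-month replicate 1, the highest array for 9 of the 10 genes, all 10 endothelial and all 8 leukocyte markers also had their highest value. There 11 of 12 oocyte markers had their lowest. How many of all genes were highest or lowest on that array was not counted. Summed endothelial marker intensity ranged from 1965 to 3932 in dKO at 2 months, from 1272 to 1880 in dKO at day 25 and from 1009 to 1236 in wild type. Summed leukocyte marker intensity ranged from 4311 to 13586 in dKO at 2 months, from 4009 to 7412 in dKO at day 25 and from 1391 to 2759 in wild type. Summed oocyte marker intensity ranged from 7816 to 42712 in dKO at 2 months, from 52682 to 76900 in dKO at day 25 and from 22631 to 36912 in wild type. At day 25 all 12 oocyte, 10 stromal, 10 endothelial and 8 leukocyte markers had higher means in dKO than in wild type, while the means of the 10 genes were lower. Granulosa markers had a median log2 difference of 0.03 at day 25, 7 of 10 with higher dKO means. The ID genes were higher in dKO at 2 months than in dKO at day 25. So were the means of all 10 endothelial markers (median log2 difference 0.8) and all 8 leukocyte markers (0.71). Some theca and surface epithelium markers were higher too. Cyp17a1, a theca enzyme of androgen synthesis, gave 12804 and 15028 in dKO at 2 months, against 389 and 5073 in dKO at day 25 (log2 difference 3.30 ± 1.20 (SE), adjusted p = 0.712). Star, which carries cholesterol into mitochondria for steroid synthesis, gave 449 and 770, against 44 and 109. Of the 6 theca markers, 3 had higher means and 3 lower, these last being Ptch1 (-0.09), Gli1 (-0.24) and Hhip (-0.58). Relative to the mean of the 6 arrays, the median theca level was 0.28 and 0.36 in dKO at 2 months. It was -0.31 and 0.42 in dKO at day 25, so the groups overlapped. Summed theca intensity ranged from 17173 to 18912 in dKO at 2 months, most of it from Cyp17a1. It ranged from 3479 to 9022 in dKO at day 25 and from 4518 to 6234 in wild type. All 6 surface epithelium markers had higher means in dKO at 2 months than in dKO at day 25 (median 0.77), with sums from 1472 to 3291 and from 1199 to 1497, and from 1157 to 1246 in wild type. ID genes and BMP receptors are also expressed outside granulosa cells, endothelium included. The part of other cell types in the differences above was not tested, and fewer cells of a type cannot be told apart from less RNA per cell in such bulk samples. No marker is at 0, since RMA values have a floor above it: Pecam1, an endothelial adhesion molecule, gave 86 and 45 in dKO at 2 months, 32 and 36 in dKO at day 25, and 30 on both wild-type arrays.

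**Figure D4:**
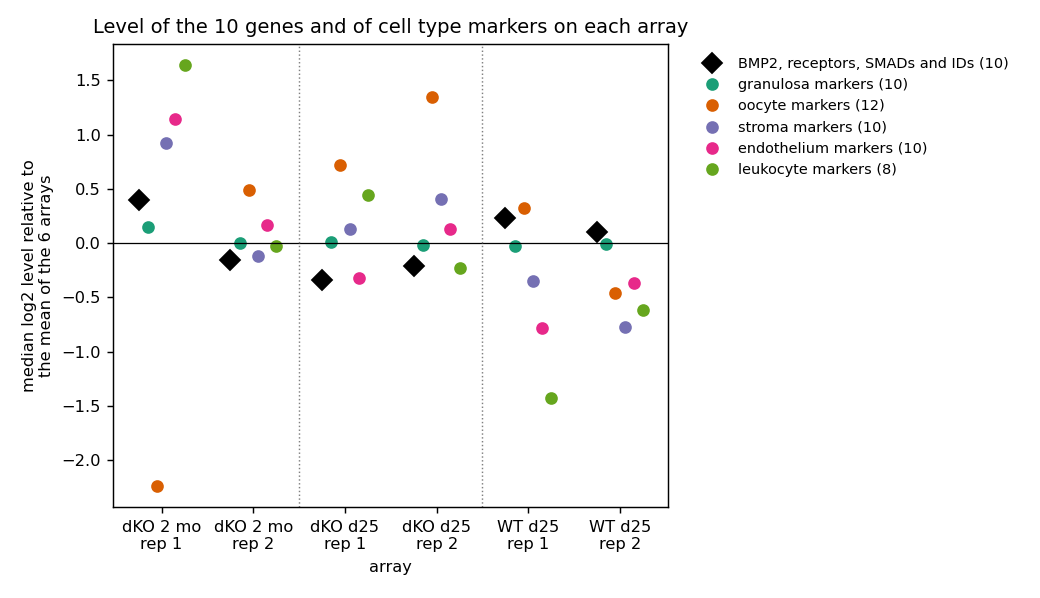
Median log2 level of the 10 genes (black diamonds) and of 5 lists of cell type markers (circles) on each array, relative to the mean of the 6 arrays; the number of genes per list is in brackets. The 10 genes lie at 0.40 on dKO 2-month replicate 1, at -0.16 on replicate 2, at -0.34 and -0.21 in dKO at day 25 and at 0.23 and 0.10 in wild type, and the oocyte markers are lowest (-2.24) where the leukocyte markers are highest (1.64).

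Of 59 other genes of BMP signalling listed by role, 53 were measured, and 0 passed the adjusted threshold in any comparison. At day 25 the unadjusted p was under 0.05 for 2 that were lower and 2 that were higher in dKO, 3.77% each way, against 3.43% lower and 4.88% higher over all genes, and the median log2 difference was -0.02. Both numbers depended on single arrays. They changed in fits that left 1 array out, for which shares over all genes were not counted. Groups were apart downwards for 11 of the 53 (20.8%, against 19.5% of all genes) and upwards for 12 (22.6%, against 26.4%), so these shares were near those of all genes. Atoh8, a transcription factor gene that responds to BMP, gave 113 and 130 in dKO and 209 and 198 in wild type (log2 difference -0.74 ± 0.13 (SE), adjusted p = 0.474). Both dKO arrays were well below both wild-type arrays. Amhr2, the receptor for anti-Müllerian hormone, which also signals through SMAD1, gave 9102 and 8943 against 11809 and 12482 (-0.43 ± 0.15, adjusted p = 0.584), and the Cre is driven by this locus. In the other direction, the ligand gene Bmp4 gave 76 and 78 in dKO against 55 and 52 in wild type (0.52 ± 0.13, adjusted p = 0.514). Htra1, a secreted protease that restrains TGF-beta family signals, gave 24187 and 20953 against 16805 and 16884 (0.42 ± 0.12, adjusted p = 0.554). The 3 E protein genes Tcf3, Tcf4 and Tcf12, whose products pair with ID proteins, were chosen after their values were seen. On their brightest probe sets all 3 were lower in dKO without overlap, with log2 differences of -0.21, -0.42 and -0.20. None of these 3 probe sets had an unadjusted p under 0.05. The groups overlapped on dimmer probe sets of Tcf12, at -0.46, 0.4 and 0.12, and on the dimmest of Tcf4, at -0.15. The remaining dimmer probe sets of the 3 genes were lower without overlap. Among 12 measured ligands, the oocyte ligand genes Gdf9 and Bmp15 had higher means in dKO with the other oocyte markers (1.01 and 1.10), and Bmp6 had -0.14.

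Between dKO at 2 months and dKO at day 25, the unadjusted p was under 0.05 for 4 of the 53 that were lower (7.55%, against 2.9% of all genes) and 2 that were higher (3.77%, against 3.73%), with a median log2 difference of 0.01. Both counts were 0 without dKO 2-month replicate 1, and they were 8 and 13 without replicate 2 of that group. They were 4 and 0 without dKO day 25 replicate 1, 2 and 1 without dKO day 25 replicate 2, and 2 and 0 without either wild-type array. Fst, whose product follistatin binds activin and some BMPs, gave 4491 and 5571 at 2 months, against 10515 and 7416 at day 25 (-0.82 ± 0.21 (SE), adjusted p = 0.712). Smurf2, a ubiquitin ligase for SMADs, had -0.42 ± 0.13, Ski, a repressor of SMAD activity, -0.54 ± 0.17, and Hey1, a target of Notch and BMP signals, -0.57 ± 0.21. Higher were Bmp4, at 112 and 91 against 76 and 78, and Gata2, a transcription factor, at 199 and 167 against 121 and 147. These 6 had adjusted p = 0.712.

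For dKO at 2 months against wild type at day 25, the unadjusted p was under 0.05 for 4 of the 53 that were lower (7.55%, against 5.36% of all genes) and 8 that were higher (15.1%, against 9.53%). These counts also changed with single arrays left out, and how many of all genes passed in those fits was not counted. Bmp4 was 112 and 91 against 55 and 52, above wild type on all 4 dKO arrays (log2 difference 0.90 ± 0.13 (SE), adjusted p = 0.177). Atoh8 was 136 and 119 against 209 and 198, below wild type on all 4 dKO arrays (-0.67 ± 0.13, adjusted p = 0.225). Acvrl1, a receptor known from endothelium, gave 273 and 107 against 57 and 63 (1.50 ± 0.45), and the co-receptor Eng gave 417 and 266 against 148 and 187. All 10 endothelial markers had higher means in the same comparison, and their part in these values was not tested. Bambi, a decoy receptor, was 1969 and 1130 against 313 and 743 (1.63 ± 0.49), and Gata2 had 0.55 ± 0.16. Fst (-0.91 ± 0.21) and the ligand gene Bmp6 (-0.51 ± 0.15) were lower. On the dimmer Fst probe set the difference was -1.9 ± 0.28, with adjusted p = 0.177. The adjusted p of these 8 genes ran from 0.177 to 0.331.

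The genes whose mean-centred log2 values over the 6 arrays lay closest to those of Bmp2, among 18192 others, were Iigp1, Ctsh and Tox3, with root mean square distances of 0.15, 0.17 and 0.25. Ctsh, which encodes the protease cathepsin H, gave 3460 and 840 in dKO at 2 months, 1004 and 1139 in dKO at day 25, and 1764 and 1487 in wild type. Like Bmp2, it was highest on dKO 2-month replicate 1 and lowest on replicate 2. Bmp2 differed by 2.13 on the log2 scale between those replicates. The genes were picked for likeness to Bmp2 over the same 6 arrays, so this match follows from the choice and is no separate evidence.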

How the data were processed

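RNA from granulosa cells was measured on 1 Affymetrix array per sample. The deposited values are intensities, linear and whole-numbered. The submitters' processing notes name affy and RMA for what the authors did; versions, genome build and rounding are not given in the sources used here. Because RMA makes the arrays' distributions alike, a shift shared by most genes is hidden. The file holds 45101 probe sets, and its 64 AFFX controls were excluded. Of the 45037 others, 34945 have 1 gene symbol in the platform annotation, 932 several and 9160 none. Each gene was represented by its probe set of highest mean, and all probe sets of the 10 genes were kept, with no filter on low values.

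Values were transformed as log2(value + 1), so changes of dim genes are understated. R 4.3.3 and limma 3.58.1 fitted a mean per group over all 6 arrays (3 residual degrees of freedom), with 3 two-sided contrasts, empirical Bayes moderation and Benjamini-Hochberg adjustment over 45037 probe sets. The fit was tested on simulated data. Whether replicates are separate animals is not in the labels, so the p-values reflect only how far these samples spread, possibly for technical reasons. Precision is limited by the number of arrays. The genes, lists and tests were chosen with earlier results of these data known. From the BMP list, up to 8 genes of smallest p per comparison are named where the unadjusted p was under 0.05, with the oocyte ligands and the E protein genes, these last chosen after their values were seen. Alternatives were a pseudocount of 16, quantile normalization once more, dropping dim probe sets, fits of 4 arrays, an intensity trend with a robust prior, array weights, a replicate block, averaging a gene's probe sets and leaving out each array. Of the 9 marker lists, theca, erythrocyte, surface epithelium and luteal markers had median log2 differences of -0.04, 0.58, 0.31 and -0.11 for dKO against wild type at day 25, and of 0.18, 0.35, 0.77 and 0.01 for dKO at 2 months against day 25. Against wild type, dKO at 2 months gave 0.25, 0.93, 1.05 and -0.10.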

Additional observations from a re-analysis of the deposited data

How the results depend on the processing

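Across 8 alternatives and the 6 fits that leave out 1 array, 0 of the 10 genes and 0 of the 53 other BMP genes reached the adjusted threshold in any comparison, and 0 of all probe sets did where single probe sets were fitted. At day 25 the count of genes lower at an unadjusted p under 0.05 was 1. It was 2 with dim probe sets left out, with an intensity trend and robust prior, with array weights and with the replicate block. It was 4 with only the 4 arrays compared and with a gene's probe sets averaged. With that mean, the corresponding count for 2 months against wild type was 2 in place of 0. Without single arrays, the counts higher for 2 months against day 25 ran from 0 to 5, and those for 2 months against wild type from 0 to 3 in each direction. The cause of these shifts was not tested. These counts were added after seeing the data. The replicate numbers do not pair the samples: the deviations of same-numbered arrays correlated at 0.057, -0.208 and -0.159, and the block changed no adjusted call.

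Of 240 log2 differences of single genes under the alternatives, 4 changed sign and 236 did not. Many were fixed in advance. Dropping dim probe sets, fits of 4 arrays, the trend with robust prior and the replicate block leave these differences unchanged. So do the array weights, which were equal within each group. Only the pseudocount, the repeated quantile normalization and the mean of all probe sets could change a sign. Bmpr2 for 2 months against wild type was 0.01 with repeated quantile normalization. With the mean of all probe sets, Bmpr1b and Bmpr2 for 2 months against day 25 were -0.15 and -0.01, and Id4 for 2 months against wild type was -0.33, since their dimmer probe sets are lower. Where the omitted array lies outside the comparison, or the groups do not overlap, no sign can change. Of 180 differences without 1 array, 19 changed sign. The ranges of the genes concerned were as follows. At day 25, Bmpr1a ran from -0.16 to 0.07. For 2 months against day 25, the median of the 10 genes ran from -0.05 to 0.65, Bmp2 from -0.45 to 1.68, Bmpr1a from -0.05 to 0.60, Bmpr1b from -0.21 to 0.47, Bmpr2 from -0.12 to 0.17, Smad1 from -0.07 to 0.45 and Smad6 from -0.04 to 1.19. For 2 months against wild type, Bmp2 ran from -1.11 to 1.02, Bmpr1a from -0.10 to 0.55, Bmpr1b from -0.62 to 0.06, Bmpr2 from -0.20 to 0.09, Smad1 from -0.33 to 0.20, Smad6 from -1.14 to 0.09, Id3 from -0.09 to 0.32 and Id4 from -0.05 to 0.25. Where an array is left out, the fit gives its lone partner the spread of the remaining groups.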
